A study of Rattus norvegicus with 34 samples.

Results

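The stretch described here is a 1.1 Mb segment of rat chromosome 1, chr1:11400001-12500000 in the Rnor_6.0 build. It was taken as all 1 kb windows of that interval, 1100 of the 2782040 windows in the deposited tables. The segment was selected on its measured MeDIP signal and on windows that differed between ifosfamide lineages and F1 controls, so both contrasts with the F1 controls helped to choose it. Their fold changes and calls are given below as a description and support nothing further. No gene annotation or sequence of this build was used here, so the windows are named by position only. The label places the segment near 11.9 Mb, and the data put nearly all of its signal there, in a tract of 73 kb at chr1:11903001-11976000.

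The study measured DNA methylation in rat sperm by methylated DNA immunoprecipitation followed by sequencing (MeDIP-seq). Sperm came from the cauda epididymis of outbred Hsd Sprague Dawley SD (Harlan) rats, and the labels' protocols state a short sonication with washes to clear other cell types. The founder (F0) males received ifosfamide, an alkylating chemotherapy drug, at 8.5 mg/kg, or PBS at 1.1 mL/kg, on days 26, 29 and 32. The F1 control group descended from 3 PBS males, and the F1 and F2 ifosfamide groups descended from 5 ifosfamide males. Neither F1 nor F2 males are labelled as having been treated themselves. F2 animals came from F1 animals of 80 to 90 days bred within their lineage to non-littermates. Each library held pooled DNA, from 3 to 4 males in F1 and from 8 to 9 males in F2 ifosfamide, with 6 pools in each of the 3 groups used here. The labels count 25 F1 control, 18 F1 ifosfamide and 43 F2 ifosfamide males. The F2 count is smaller than 6 pools of 8 males would need, so the F2 pools may not all hold different males. P-values therefore measure the spread between pools, and few founders stand behind each lineage. The cell type could not be checked against marker genes in these data.

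Methylated cytosine in mammals lies mostly at CpG sites, and mature sperm DNA is highly methylated outside of CpG-rich promoters and some repeats. MeDIP uses an antibody against methylated cytosine, so the number of reads over a window rises with the methylation of its sites, with how many such sites it holds, and with how many copies of the sequence each genome carries. A stretch that is present once in an assembly and many times in the animals collects the reads of all its copies. Windows of very high signal can arise in each of these ways, which cannot be told apart from these counts.

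Libraries held 23336048 to 39440265 counts over all windows. The mean number of windows counted per read, estimated per library, ran from 1.16 to 1.22 in F1 control, from 1.17 to 1.25 in F1 ifosfamide and from 1.16 to 1.23 in F2 ifosfamide pools. Values below are CPM, counts per 1000000 counts of a library, after TMM scaling, whose factors lay between 0.983 and 1.01. A window was called very high when the mean of the 3 group means was at least 5 CPM. Of all windows of the genome 2076, or 0.0746%, passed that level, against a genome median of 0.214 CPM.

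The tract stood far above its surroundings in all 18 libraries. Its 73 windows are 0.00262% of all windows and took 0.0765% to 0.131% of a library's counts, and 75.5% to 85.2% of the counts of the whole segment. It held 53 very high windows, whose median level was 16.0 CPM, 74.8 times the genome median, with a range from 5.03 to 71.5 CPM. The other 20 windows of the tract are called ordinary here. The 1027 flank windows outside the tract had a median of 0.138 CPM, and the highest of them, at 11469001, had 2.38 CPM. The tract was the 2nd largest of 960 groups of nearby very high windows in the genome, by their number. A group could hold lower windows between very high ones, as the tract does, so this rank depends on the spacing allowed. The largest group had 69 very high windows, the next smaller one 36, and 669 groups were single windows.

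**Figure D1:**
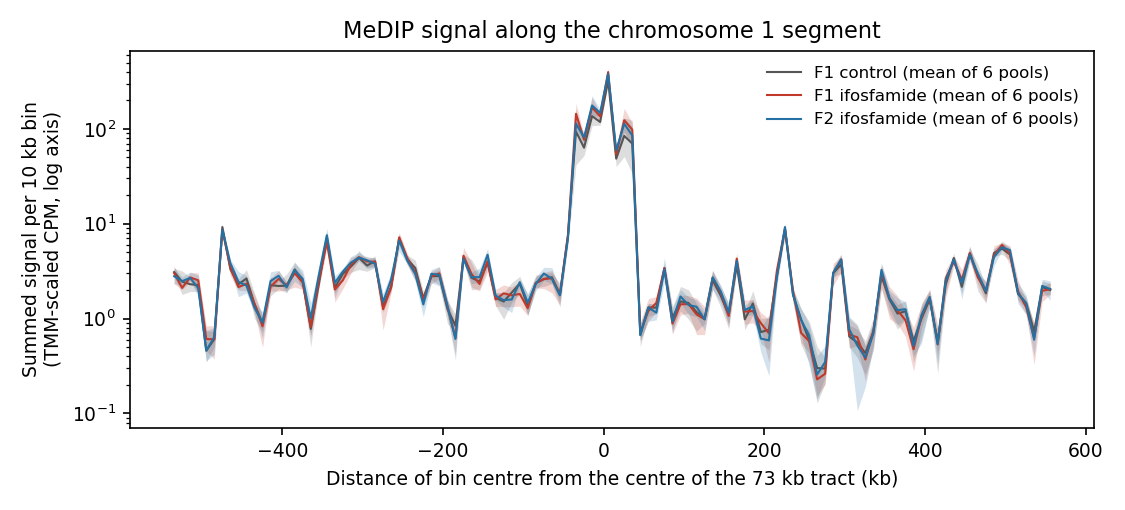
Summed MeDIP signal per 10 kb bin (TMM-scaled CPM, log axis) against distance from the centre of the 73 kb tract, for 3 groups of 6 pools; lines are group means and shading spans the lowest to the highest pool. The 6 bins wholly inside the tract lie between 53.9 and 367 CPM, and the 102 bins wholly outside it between 0.262 and 8.95 CPM.

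Both ends of the tract were sharp. On the left, the last flank window, at 11902001, had 0.348 CPM and the first tract window, at 11903001, had 10.9 CPM. The ratio of the raw counts of these neighbours was 37.7 at the median over libraries, with a range of 8.55 to 84.7. On the right, the last tract window, at 11975001, had 6.17 CPM and the next window, at 11976001, had 0.681 CPM. That ratio was 8.95 at the median, with a range of 6 to 17.2. Each end therefore had a drop of at least 6-fold over a single 1 kb step in every library of all 3 groups, although the right one was less steep. The fall was not complete in that step. On the right it had begun 1 window earlier, from 14.1 CPM at 11974001. Both windows just outside the tract were still above the flank median of 0.138 CPM.

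The highest signal lay in the middle of the tract. The window at 11945001, with a mean of 71.5 CPM, ranked 49th of all windows in the genome, and its neighbour at 11944001 ranked 72nd with 57.2 CPM. In the window at 11945001 the F1 control pools 1 to 6 had 52.0, 58.6, 75.8, 56.6, 63.1 and 75.2 CPM. The F1 ifosfamide values ran from 69.4 to 81.3 CPM with a median of 75.0, and those of F2 ifosfamide from 64.3 to 88.0 CPM with a median of 76.7. Control pools 3 and 6 reached the level of the ifosfamide pools, and the other 4 control pools lay below every one of them. The windows at 11948001 (51.8 CPM), 11926001 (51.8 CPM) and 11940001 (42.7 CPM) followed and ranked 83rd, 84th and 111th.

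The tract was interrupted by 4 stretches with next to no reads. They cover chr1:11921001-11922000, chr1:11923001-11924000, chr1:11931001-11935000 and chr1:11952001-11957000, which is 11 windows in all. In 9 of these windows no library had a single count, and the 2 others, at 11931001 and 11934001, held 5 counts each over all 18 libraries. The windows on both sides of each stretch were very high, such as 36.0 CPM before and 26.0 CPM after the 4 kb stretch. A count of 0 in a library allows up to 3 counts, so the empty windows can be placed well below their neighbours, the 7 of which held 3071 to 19807 counts over the 18 libraries. The cause of the empty windows was not tested. The remaining 9 ordinary windows had 2.06 to 4.77 CPM. They lay between very high windows toward both ends of the tract, at 11910001 to 11915001, at 11962001, and at 11964001 and 11965001. Between the peaks, therefore, the tract held either nearly nothing or a signal that was still many times the genome median.

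Against the F1 controls, signal in the tract was higher in both ifosfamide groups, while the flanks moved little. The F2 ifosfamide and F1 control groups differ in generation, lineage and males per pool together, and these cannot be told apart here. All values against F1 control, here and further on, come from the contrasts that chose the segment. The median log2 fold change of the 53 very high windows was 0.28 in F1 ifosfamide and 0.31 in F2 ifosfamide, and 51 and 52 of them lay above 0. The 9 ordinary windows with enough counts had medians of 0.59 and 0.38, all above 0. The flanks had medians of 0.01 over 248 windows and 0.05 over 212 windows. Over all tested windows of the genome the medians were 0.0050 and -0.00048. Over all 2076 very high windows of the genome, which include those of the tract, the median was -0.09 in F1 and 0.07 in F2, with 38.0% and 60.9% of windows above 0. Both contrasts use the same 6 control pools, so that a low control value raises both.

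Summed over the 53 very high windows, the F1 control pools had 914 ± 133 CPM, 1164 ± 88.4 in the F1 ifosfamide pools and the F2 ifosfamide pools 1125 ± 90.3 CPM (mean ± SD, n = 6 pools each). The ratio to control was 1.27 in F1 and 1.23 in F2. The groups overlapped because control pool 3, at 1139 CPM, lay above 3 pools of each ifosfamide group. The 20 ordinary windows summed to 22.4 ± 7.38, 31.4 ± 7.97 and 29.6 ± 4.70 CPM (mean ± SD, n = 6), with ratios of 1.40 and 1.32. The 1027 flank windows summed to 245 ± 3.84, 245 ± 8.10 and 251 ± 2.02 CPM (mean ± SD, n = 6), with ratios of 1.00 and 1.03. The shift was thus seen in the peaks and in the 9 ordinary windows that were not near-empty, and was at most a few percent outside. The 11 near-empty windows held too few counts to show one.

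Few single windows passed the threshold of an adjusted p below 0.05 in edgeR's quasi-likelihood fits against control. Such windows chose the segment, so their counts describe the choice, and nothing is read from them against the genome's shares. In F1, 6 of the 310 tested windows of the segment were called, all of them higher in ifosfamide and all inside the tract, where 0.0598% of all tested windows of the genome were called, 0.00546% as higher, and 0.771% of its very high windows as higher. They lay at 11903001, 11908001, 11909001, 11964001, 11967001 and 11968001. In F2, 4 of 274 were called, also higher and inside the tract, at 11928001, 11929001, 11965001 and 11966001, where 0.0311% of tested windows of the genome were called, 0.0186% as higher, and 0.915% of its very high windows as higher. No window passed the threshold in both contrasts, but each window called in 1 of them was also above 0 in the other. These other log2 fold changes ran from 0.11 at 11903001 in F2 to 0.78 at 11965001 in F1. Their edgeR adjusted p-values ran from 0.0564 at 11909001 in F2 to 0.840 at 11903001 in F2. The counts depended on single pools. The 6 F1 calls became 1, 2 and 3 without control pools 6, 2 and 5, 15 without control pool 3, 17 without ifosfamide pool 1, and 2 and 3 without ifosfamide pools 3 and 5. The 4 F2 calls became 1, 1 and 2 without control pools 2, 5 and 6, 8 without control pools 3 or 4, 8 without ifosfamide pool 1, and 2, 1, 2 and 1 without ifosfamide pools 2, 3, 4 and 5. With windows per read as a covariate there were 19 calls in F1 and 7 in F2, and with DESeq2 there was 1 call in F1.

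The authors' deposited table marks other windows of the same tract. In F1 it has an adjusted p below 0.05 at 11941001, 11946001 and 11948001, none of which was called in the refit. In F2 it has 11928001 and 11943001, of which the first was called in the refit. The table does not name its direction, and its log2 fold changes had the opposite sign to the refit in 295 of 295 windows of the segment for F1 and 268 of 268 for F2. Turned to ifosfamide over control on that ground, the log2 fold changes in the authors' deposited table were 0.23, 0.26 and 0.33 for F1 and 0.54 and 0.38 for F2. The refit gave 0.24, 0.27, 0.33, 0.54 and 0.38 for the same windows in the same order, so the sizes matched closely where the calls did not.

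The span of the shift was located by finding the interval whose log2 fold changes, weighted by their precision, were best described by a single raised level. For F1 the interval was chr1:11903001-11976000, the same as the tract of very high signal, with a mean log2 fold change of 0.33 inside and 0.01 outside. For F2 it was chr1:11904001-11977000, offset by 1 window at each end, with 0.33 inside and 0.05 outside. The F1 interval kept both ends when each pool was left out in turn, except that its start moved to 11902001 without control pool 1. The F2 interval shrank to chr1:11909001-11972000 without control pool 6, the pool with the lowest signal at both ends of the tract. It started at 11899001 without F2 pool 3, and at 11903001 without control pool 3.

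**Figure D2:**
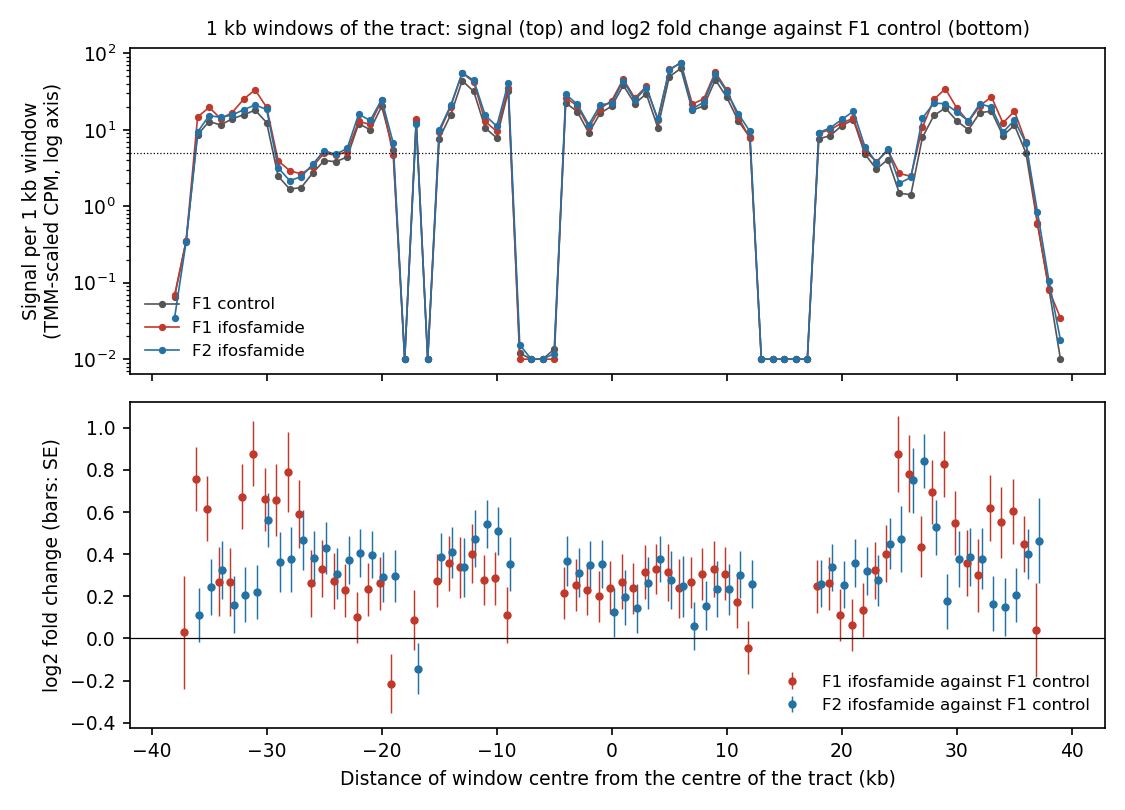
Signal (top, TMM-scaled CPM, log axis, group means of 6 pools; values below 0.01, including 0, are drawn at 0.01; the dotted line is 5 CPM) and log2 fold change against F1 control with its SE (bottom), per 1 kb window, against distance from the centre of the tract. The median log2 fold change of the 20 edge windows is 0.61 in F1 and 0.34 in F2, and that of the 53 kb centre 0.26 and 0.33, although the highest F1 value is 0.88 both at the edges and in the centre.

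The tract fell into ends and a middle that behaved differently among pools. This split was made after the values had been seen, and no test is attached to it. The edges are taken as the outer 10 kb at each side, chr1:11903001-11913000 and chr1:11966001-11976000, and the centre as the 53 windows between them. The F1 shift was larger at the edges by its median, with a log2 fold change of 0.61 against 0.26 in the centre. Single centre windows were as high, with 0.88 at 11964001 and 0.78 at 11965001, next to the right edge. In F2 the medians were 0.34 and 0.33.

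In the centre, signal summed to 712 ± 47.5 CPM in F1 control, 855 ± 44.1 CPM in F1 ifosfamide and 874 ± 57.4 CPM in F2 ifosfamide pools (mean ± SD, n = 6 each). The control pools ran from 663 to 785 CPM, the F1 ifosfamide pools from 796 to 897 CPM and the F2 ifosfamide pools from 787 to 959 CPM. In these sums all 12 ifosfamide pools therefore lay above all 6 control pools, by a narrow margin, with ratios of 1.20 and 1.23. When each library was instead divided by its own flank signal, the F2 and control pools overlapped, at a lowest F2 value of 3.13 and a highest control value of 3.15, while the F1 pools stayed apart. Leaving out any 1 pool left the log2 ratio of the centre between 0.24 and 0.29 in F1 and between 0.27 and 0.33 in F2. The separation is one of the sums. Taken singly, most tested windows of the centre had overlapping ifosfamide and control pools in both contrasts.

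At the edges the control pools themselves differed widely. The sums of control pools 1 to 6 were 191, 195, 386, 267, 201 and 105 CPM, a 3.68-fold range. Pool 6 was the lowest control pool in 19 of the 20 edge windows and pool 3 the highest in 18. The F1 ifosfamide pools ran from 232 to 439 CPM with a mean of 340, and the F2 ifosfamide pools from 230 to 333 CPM with a mean of 280. Every ifosfamide pool exceeded the control mean of 224 CPM, and 1 of 12, F1 pool 5, exceeded control pool 3. The ratio to control was 1.52 in F1 and 1.25 in F2. Its log2 value in F1 was 0.60, with 0.45 without control pool 6 and 0.82 without control pool 3. In F2 it was 0.32, with 0.18 without control pool 6 and 0.55 without control pool 3.

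**Figure D3:**
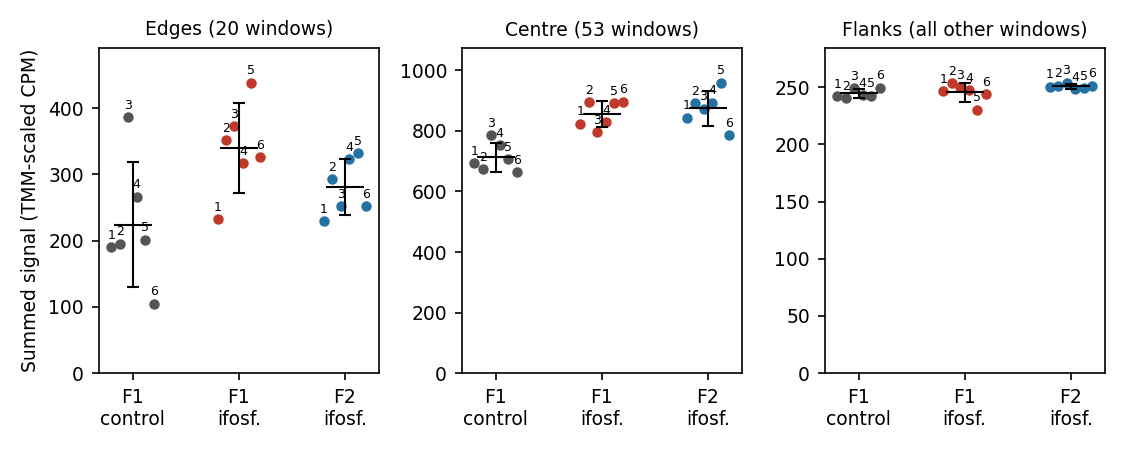
Summed signal (TMM-scaled CPM, axis from 0) of the edges, the centre and the flanks in each pool, numbered by replicate, with the mean and SD of 6 pools. Control pools 3 and 6 stand at 386 and 105 CPM at the edges, the centre sums of both ifosfamide groups lie above 785 CPM, and flank sums stay between 230 and 254 CPM.

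The spread between pools was far larger than counting error at the edges. Over the 17 very high edge windows the median coefficient of variation among control pools was 41.9%, where counting alone would give 5.31%. In the 36 very high windows of the centre it was 13.5%, near the median of 14.7% over the genome's very high windows. The edges varied less in the other groups, with 23.9% in F1 ifosfamide and 16.1% in F2 ifosfamide, and the F2 pools hold DNA of more males each. At the genome's very high windows the groups differed less, with 14.7% in F1 control, 15.8% in F1 ifosfamide and 12.0% in F2 ifosfamide. The edges lay above these medians in all 3 groups. The cause of the differences in spread was not tested.

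Both edges rose and fell together although the centre lies between them. Correlations are given over the 18 pools after subtracting each group's mean, as a description, since the windows share libraries and were set apart after inspection. The median Pearson r between a left-edge and a right-edge window was 0.84 over 100 pairs, close to the 0.87 within the left edge and the 0.81 within the right edge. Left-edge and centre windows had a median r of 0.43, and pairs of centre windows 0.31. The r of the 100 pairs between the edges ran from 0.49 to 0.97. The highest was that of the windows at 11908001 and 11968001, some 60 windows apart. For the window at 11904001 the right-edge window of highest r was at 11972001, also with r = 0.97. These pairs were picked for their high r.

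The pair of highest r, at 11908001 and 11968001, shows this pool by pool. At 11908001 the F1 control pools 1 to 6 had 16.1, 14.2, 28.4, 20.6, 20.2 and 9.05 CPM, and at 11968001 the same pools had 16.6, 16.5, 32.5, 19.2, 21.6 and 9.74 CPM. The F1 ifosfamide pools had 21.9, 33.2, 36.0, 33.3, 49.2 and 26.8 CPM at the first window and 22.6, 29.7, 35.0, 38.1, 53.5 and 27.9 CPM at the second. The F2 ifosfamide pools lay between 18.2 and 25.5 CPM at the first and between 18.7 and 25.8 CPM at the second. Control pool 3 and F1 ifosfamide pool 5 were the highest of their groups at both windows, and control pool 6 was the lowest of all 18 pools. The log2 fold changes against control were 0.88 and 0.83 in F1, and 0.22 and 0.18 in F2.

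In a few pools, picked after their values were seen, a dip inside each edge was deep on both sides. The windows at 11905001 and 11906001 on the left, and at 11970001 and 11971001 on the right, had F1 log2 fold changes of 0.27, 0.27, 0.36 and 0.30, below those of the windows that flank them. The ratio of each dip to the windows just outside it ran from 0.693 to 0.996 in control pools on the left and from 0.550 to 1.06 on the right. F1 ifosfamide pools 4 and 5 had 0.492 and 0.656 on the left and 0.499 and 0.473 on the right, and control pool 5 had 0.693 and 0.550. These 3 pools had the 3 lowest ratios on the right, and F1 ifosfamide pools 4 and 5 the 2 lowest on the left. F1 ifosfamide pool 3 had 0.665 on the left but 0.808 on the right. The F2 pools stayed between 0.793 and 1.02 on both sides.

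A run of 7 windows in the centre, chr1:11924001-11931000, shared only part of its order of pools with the rest of the tract. It was picked out after its values were seen. Control pool 6 was the lowest control pool in 6 of the 7 windows and F1 ifosfamide pool 5 the highest F1 ifosfamide pool in 6, as they were in 19 and 11 of the 20 edge windows. Control pool 1 was the highest control pool in all 7 windows, and F2 pool 1 was the highest F2 pool in all 7. In the 29 other very high windows of the centre, control pool 1 was the lowest control pool in 16 and F2 pool 1 the lowest F2 pool in 20. The median r was 0.82 within the run, and -0.09 between the run and those other windows. At 11926001 control pool 1 had 63.9 CPM and the 5 other control pools 36.0 to 45.4 CPM, while the F2 pools 1 to 6 had 73.6, 55.3, 56.5, 49.1, 56.3 and 43.5 CPM. The F1 ifosfamide pools ran from 45.0 to 71.5 CPM at that window, so the 3 groups overlapped there.

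**Figure D4:**
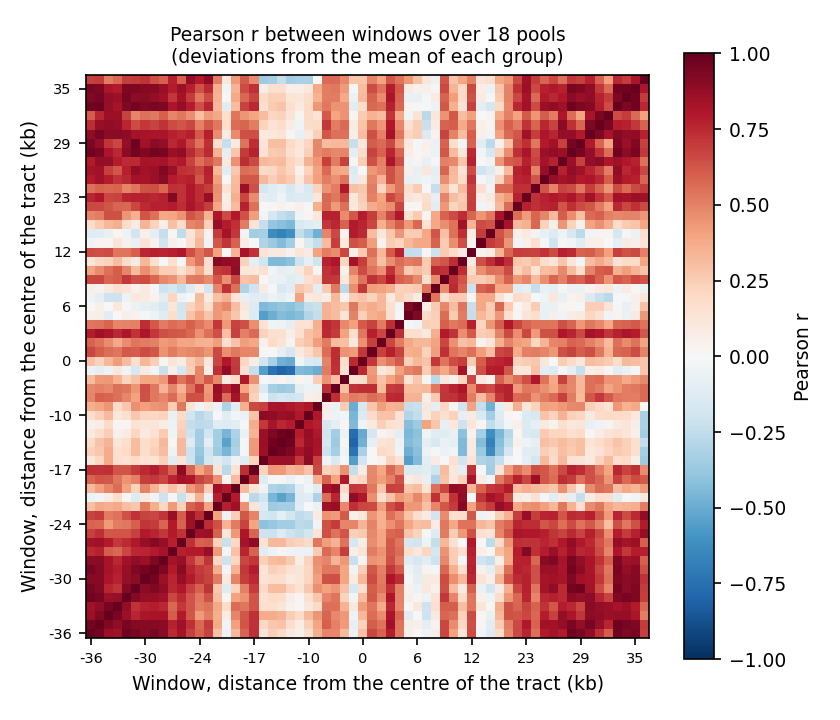
Pearson r between windows of the tract over 18 pools, after subtracting each group's mean from log2 CPM; windows run from the left to the right end on both axes, labelled by distance from the centre of the tract, and near-empty windows are left out, so the axes are not linear. Both ends form blocks of high r with themselves and with each other (median 0.84 between ends), and the 7-window run left of the middle forms a block of its own (median 0.82).

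Sums over the very high and the ordinary windows were then compared across the pools of each group. Nearly all of the ordinary sum came from the 9 windows that were not near-empty, which lie close to very high ones in the same libraries. A read can also be counted in more than 1 window. A positive correlation was thus partly built in, and the p-values below cannot separate it from that. Across the 6 control pools Pearson's r was 0.94 and Spearman's rho 0.83, with exact permutation p-values of 0.00556 and 0.0583, which become 0.0167 and 0.0875 after Benjamini-Hochberg adjustment over the 3 groups. Without the 2 pools farthest from the median, pools 3 and 6, r was 0.95. In F1 ifosfamide r was 0.65 and rho 0.54, with exact permutation p-values of 0.144 and 0.297 (both 0.144 and 0.297 after adjustment). Without pools 1 and 5, r was -0.88, so that relation rested on those pools. In F2 ifosfamide r was 0.85 and rho 0.89, each with an exact permutation p of 0.0333, which became 0.05 and 0.0875 after adjustment and did not pass. With very high windows taken from 10 CPM, r was 0.86 in F1 control and 0.88 in F2 ifosfamide, both with an adjusted p of 0.0271 in the exact permutation test. Without pools 5 and 6, r in F2 was 0.94 at the 5 CPM level.

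F2 ifosfamide was then compared with F1 ifosfamide, a contrast that was not used to choose the segment, although both groups entered the choice through their contrasts with control. The class sums did not differ past the threshold. The very high windows summed to a ratio of 0.967 in F2 relative to F1 ifosfamide (log2 -0.05 with an SE of 0.07, exact permutation p = 0.465, two-sided, adjusted 0.652 over 3 classes). The ratio was 0.942 for the ordinary windows (log2 -0.09 with an SE of 0.18, exact permutation p = 0.652, adjusted 0.652). It was 1.02 for the flanks (log2 0.03 with an SE of 0.02, exact permutation p = 0.108, adjusted 0.325), with all 6 F2 pools above the F1 mean. Without F1 ifosfamide pool 2, the adjusted p of the flanks became 0.0325 in the same exact permutation test, at a log2 ratio of 0.04. As a description, the edges were lower in F2, at a ratio of 0.826, and all 6 F2 pools lay below the F1 ifosfamide mean of 340 CPM. The centre was nearly level, at a ratio of 1.02.

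Single windows were also called between the ifosfamide generations. Both groups entered the choice of the segment and differ in males per pool, so these calls are a description. Of 323 tested windows of the segment 10 were called, where 2.15% of all tested windows of the genome were called, 1.25% as higher and 0.898% as lower in F2. Among the 53 very high windows 7, or 13.2%, were called, against 29.0% of all very high windows of the genome, a set that includes those of the tract. The directions differed, since 9.43% of the tract's very high windows were called lower and 3.77% higher, against 3.81% and 25.2% of the genome's. Of the 7, 5 were lower in F2 and lay at 11903001, 11907001, 11908001, 11968001 and 11972001, all at the edges. The other 2 were higher in F2 and lay at 11920001 and 11966001. In the flanks 3 of 261 tested windows, or 1.15%, were called, below the share over all tested windows. They were lower at 11437001 and higher at 11599001 and 11677001. The 10 calls became 5 without F1 ifosfamide pool 3, and 6, 3 and 6 without F2 pools 2, 3 and 4.

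The 3 largest decreases inside the tract lay at windows that were also called in F1 against control. At 11908001 the level was 33.4 ± 9.29 in F1 and 21.2 ± 2.94 CPM in F2 ifosfamide (mean ± SD, n = 6), a log2 fold change of -0.66 with an SE of 0.13 and an adjusted p of 0.000894 in edgeR. At 11968001 it was 34.5 ± 10.8 and 22.0 ± 2.90 CPM (mean ± SD, n = 6), or -0.65 with an SE of 0.13 and an edgeR adjusted p of 0.0013. At 11903001, the first window of the tract, it was 14.7 ± 3.20 and 9.39 ± 1.32 CPM (mean ± SD, n = 6), or -0.64 with an SE of 0.12 and an edgeR adjusted p of 0.000433. The high F1 values of these 3 windows entered that earlier choice. All 3 kept their call in each of the 19 alternatives run. In each of them the lowest F1 pools overlapped the highest F2 pools, as F1 pool 1 with 21.9 CPM at 11908001 lay below F2 pools 4 and 5.

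Neighbouring windows at the right edge went opposite ways. At 11966001 the F1 control pools 1 to 6 had 8.05, 6.11, 12.0, 11.5, 5.83 and 4.25 CPM. The F1 ifosfamide pools had 8.04, 10.7, 10.2, 10.2, 12.4 and 12.9 CPM, and the F2 ifosfamide pools 10.6, 17.3, 12.7, 16.5, 15.8 and 12.6 CPM. The level was thus higher in F2 than in F1 ifosfamide, with a log2 fold change of 0.41, an SE of 0.12 and an edgeR adjusted p of 0.0416, although the groups overlapped. Only 2 windows away, at 11968001, it was lower. The call at 11966001 was lost without F1 ifosfamide pools 1, 3 or 4 or without F2 pools 2, 3, 4 or 5, each taken singly, with adjusted p-values from 0.0573 to 0.141. It was also lost with DESeq2 (adjusted p = 0.0547), in a fit of all 18 pools (0.0755), and with windows per read as a covariate (0.100). At 11920001, beside the first empty window, the levels were 4.75 ± 1.13 in F1 and 6.75 ± 1.46 CPM in F2 ifosfamide (mean ± SD, n = 6), with a log2 fold change of 0.51, an SE of 0.13 and an edgeR adjusted p of 0.0133. That call was lost without F1 ifosfamide pool 3 and without F2 pools 2, 3 or 4, each taken singly, with adjusted p-values from 0.0503 to 0.0777, and with windows per read as a covariate (adjusted p = 0.123). The calls at 11907001 and 11972001 were lost when F1 ifosfamide pool 3 or F2 pool 3 was left out, with adjusted p-values of 0.0779 and 0.0794 at the first and 0.0979 and 0.115 at the second. The call at 11972001 was also lost without F1 ifosfamide pool 5 and without F2 pools 1, 2 or 6, each taken singly, and with DESeq2 (adjusted p = 0.215).

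**Figure D5:**
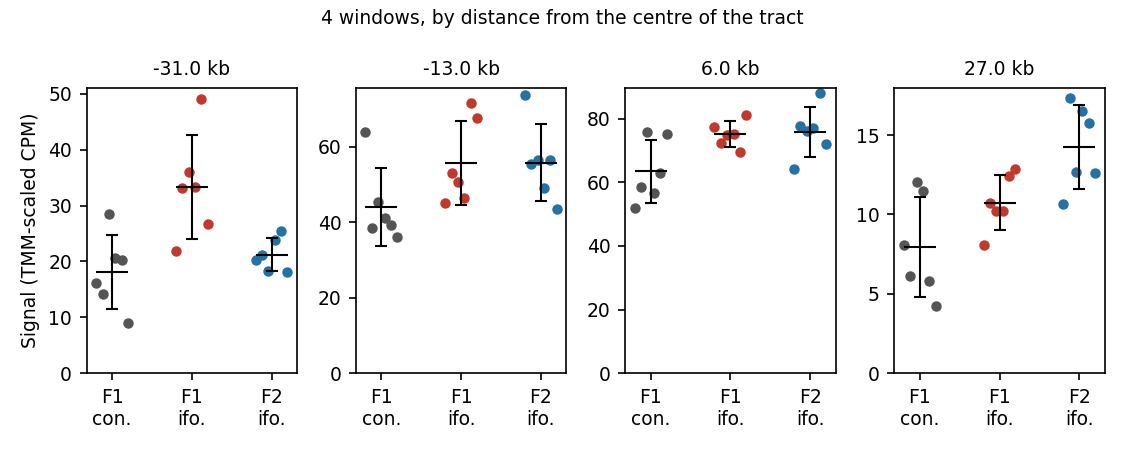
Signal (TMM-scaled CPM, axes from 0) in each of 6 pools per group at 4 windows, 31.0 kb and 13.0 kb left and 6.0 kb and 27.0 kb right of the centre of the tract, with mean and SD. At the first window the F1 ifosfamide pools reach 49.2 CPM and the F2 pools stay at or below 25.5 CPM, and at the last window the F2 pools reach 17.3 CPM against 12.9 CPM in F1.

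In the flanks the called windows had low levels. At 11437001 the level was 0.803 ± 0.122 in F1 and 0.462 ± 0.0676 CPM in F2 ifosfamide (mean ± SD, n = 6), with no overlap between the groups. Its largest count in any library was 30, so counting error is a larger part of its spread than in the tract. At 11677001 it was 0.512 ± 0.115 and 0.852 ± 0.145 CPM (mean ± SD, n = 6), also without overlap, and at 11599001 it was 0.914 ± 0.131 and 1.37 ± 0.217 CPM (mean ± SD, n = 6). The call at 11437001 was lost without F2 pool 3, at an adjusted p of 0.0503, that at 11677001 was lost in 5 of the 12 fits that each left out 1 pool, and that at 11599001 in 7 of them. The 3 highest flank windows, at 11469001, 12434001 and 11683001, had means of 2.38, 2.26 and 2.01 CPM. None of these 3 was called in any of the 3 comparisons, and their log2 fold changes lay between -0.23 and 0.12.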

How the data were processed

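MeDIP-seq read counts per 1 kb window were deposited by the authors in 2 tables. The submitters' processing notes name Bowtie2, SAMtools, FastQC, Trimmomatic, edgeR and the build Rnor_6.0, with no version or setting. The RPKM values, made by the authors from the counts, were used only to estimate reads per library and thereby windows per read. The authors' deposited mean signal per group was not used. The deposited log2 fold changes and adjusted p-values, were used only where named; their direction, control over ifosfamide, was read from their sign. Raw counts of 18 of 34 libraries were used. The other 16, from the F0 groups and the F2 control group, were not analysed here. A read can be counted in more than 1 window, so windows are not independent. Counts were fitted genome-wide with edgeR 4.0.16 (TMM, filterByExpr with a minimum count of 10, quasi-likelihood test, Benjamini-Hochberg over all tested windows, threshold 0.05). The fits were tested on simulated data, with 50000 windows and changes of known size in each comparison. False calls numbered 8 in F1 against control, 2 in F2 against control and 5 in F2 against F1 ifosfamide. The simulated windows all had the same fixed dispersion and were drawn at random from all tested windows, few of which were very high. The very high edge windows had a median coefficient of variation of 41.9% among control pools. Recovery in the tract, at its edges or in its centre, was therefore not measured. Of 1.5-fold changes 15.9% were recovered in F1 against control, 16.4% in F2 against control and 7.14% in F2 against F1 ifosfamide, and of 2-fold changes 64.3%, 70.8% and 70.5%. Class sums were compared by exact permutation over 924 regroupings. Near-empty windows were not tested. Named were the 12 highest very high windows, all called windows and the 3 highest flank windows; other windows named were chosen after their values were seen. Members, classes and lists were chosen with earlier results of these data known. Intervals and floors cover counting error only. Alternatives covered scaling, filters, thresholds, DESeq2 1.42.0, windows per read and each pool left out.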

Additional observations from a re-analysis of the deposited data

Results flagged for a closer look

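In a group of 6 pools a value was set aside for a closer look when its gap to the nearest other pool, divided by the range of the group, exceeded Dixon's 95% critical value. Of 102 groups of values tested 5 passed, which is close to the 1 in 20 that chance gives. They were control pool 4 at 11437001 (0.256 CPM), control pool 1 at 11926001 (63.9 CPM) and at 11927001 (47.6 CPM), F1 ifosfamide pool 3 at 11940001 (40.8 CPM), and F1 ifosfamide pool 5 at 11964001 (4.26 CPM). The windows at 11926001 and 11927001 adjoin and share fragments, so they are not separate signs.

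The 10 windows that differed between F2 and F1 ifosfamide in edgeR's quasi-likelihood test, by a direct test of that difference, had these log2 fold changes of F2 over F1: -0.79 at 11437001, 0.57 at 11599001, 0.72 at 11677001, -0.64 at 11903001, -0.46 at 11907001, -0.66 at 11908001, 0.51 at 11920001, 0.41 at 11966001, -0.65 at 11968001 and -0.45 at 11972001. Both groups entered the choice of the segment through their contrasts with control, so these calls are a description.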

How the results depend on the processing

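Of 903 alternative values over 57 results, 739 kept their direction and their side of the threshold or stayed within the spread. Of the rest, 132 were weaker, 14 stronger, 11 moved and 7 reversed. The number of calls was less steady. It was rated the same in 7 alternatives and not in 12 for F1 against control. For F2 against control these were 4 and 15, and for F2 against F1 ifosfamide 12 and 7. For F1 against control the 6 calls became 12 in a fit of all 18 pools, 1 with DESeq2, 1 with a minimum count of 30, 12 with no filter, 19 with windows per read as a covariate, and 1 to 17 without single pools. For F2 against control the 4 calls became 1 in the fit of all pools, 1 with a minimum count of 30, 7 with no filter, 7 with windows per read, and 1 to 8 without single pools. For F2 against F1 ifosfamide the 10 calls became 5 with DESeq2, 18 with windows per read, and 3 to 15 without single pools. Pools with the same number were not paired: the correlations of their deviations lay between -0.123 and 0.0597. With the replicate number as a block, the calls were 8, 8 and 5. The cause of these changes was not tested. Without single pools the left border lay between 11902001 and 11903001 in F1 and between 11899001 and 11909001 in F2, and the right border of F2 between 11972000 and 11977000; without weights the left border in F2 was 11899001.

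With very high windows taken from 2 CPM, the ordinary class held only the near-empty windows, with 10 counts in all. Its summed log2 ratio was then -2.46 in F1, 0.094 in F2 and 2.55 between the ifosfamide groups, its correlation with the very high windows -0.010 in F1 control and -0.73 in F1 ifosfamide, and medians over tested windows could not be given. From 10 CPM, the ordinary ratio between the ifosfamide groups was 0.092, and the correlation in F2 was 0.88 with an exact permutation p of 0.0271 after adjustment. Without the 2 farthest pools the correlation in F1 ifosfamide was -0.88. Without single pools the ordinary ratio between ifosfamide groups ran from -0.174 to 0.037, the summed flank ratio from 0.013 to 0.041, and the flank medians from 0.040 to 0.069 in F2 against control and from 0.014 to 0.072 between ifosfamide groups. For alternatives added after seeing the data, the edge ratio in F2 against control ran from 0.18 to 0.55 and the edge-to-centre ratio from -0.056 to 0.27 without single pools. With 6 pools a group, counting error limits little in the tract, whereas flank windows with few counts can show only large shifts.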
